A study of Mus musculus with 8 samples.

Results

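Wild-type mouse embryonic fibroblasts (MEFs, connective-tissue cells grown from embryos) that had received the cocktail CFAE+8+MSC were set directly against fibroblasts that had received CFAE+6, with 2 libraries in each group. These 4 of the 8 RNA libraries of the study were taken by the treatment in their labels, not by any measured value. The cells of both groups were sampled at day 4, and both cocktails held the same 4 compounds, abbreviated CFAE. They are CHIR99021, which inhibits the kinase GSK-3 and so activates Wnt signalling, Forskolin, which raises cAMP, AM580, which activates retinoic acid receptor alpha, and a compound labelled EPZ04777. To these, CFAE+8+MSC added A-83-01 together with MSC2530818, and CFAE+6 added E-616452. Each of A-83-01 and E-616452 blocks the kinase of the type I receptor of TGF-beta, and MSC2530818 inhibits the Mediator kinases CDK8 and CDK19. The other 4 libraries were fibroblasts with the CFAE compounds and A-83-01 alone (CFAE+8) and fibroblasts kept in fibroblast medium (MEF). They serve here to place levels and to share the estimate of the spread between replicates. The groups compared differ both in the receptor inhibitor and in the presence of MSC2530818, so the contributions of these compounds cannot be told apart, and the labels state no doses. They also do not say whether the replicates came from separate cultures or embryos. The p-values therefore reflect only the spread between replicate libraries, which may be technical. It was estimated over all 8 libraries and moderated over the genes tested, not taken from these 4 libraries alone.

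TGF-beta signals through a pair of receptor kinases to SMAD proteins, which enter the nucleus and activate genes of the extracellular matrix and the contractile apparatus. In fibroblasts this response, together with serum response factor (SRF) and its myocardin-related cofactors, marks the conversion to contractile myofibroblasts. CDK8 and its paralogue CDK19, bound to cyclin C, form with MED12 and MED13 the kinase module of Mediator, the complex that links transcription factors to RNA polymerase II. By the title of the series, the cocktails come from a chemical screen that named CDK8 as a barrier to reprogramming.

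Each of the 8 libraries held between 10958430 and 11913143 counts, and 15470 of the 54532 genes in the table had enough counts to be tested. Levels are given in CPM, counts scaled to a common library size with TMM factors, always in the order replicate 1 and replicate 2. Differences are log2 fold changes, positive where CFAE+8+MSC was higher, with ± the standard error of the fit. Adjusted p-values are from edgeR's quasi-likelihood test, with Benjamini-Hochberg adjustment over all genes tested, and a gene was called at an adjusted p of 0.05. Markers of the labelled cell type were present: Thy1, a surface marker of fibroblasts, stood at 1521 and 1492 CPM with CFAE+8+MSC and 1529.9 and 1540.4 CPM with CFAE+6, and Col6a1, a collagen VI chain, at 3925 and 4181 and 4073 and 4299 CPM. Mitochondrially encoded genes took 2.20% and 2.08% of the counts with CFAE+8+MSC and 2.21% and 2.08% with CFAE+6. In these bulk samples, fewer cells of a type and less RNA per cell cannot be told apart.

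The cocktails gave similar profiles with many small differences. Of the 15470 genes tested, 961 (6.21%) were higher and 660 (4.27%) lower in CFAE+8+MSC, which is 10.5% in all. The median size of a called difference was 0.36 log2 units, and 1141 of the 1621 called genes differed by no more than 0.5. At a difference of at least 1 log2 unit, 84 genes (0.543%) were higher and 59 (0.381%) lower. For 9569 genes (61.9%) the whole 95% interval of the fold change lay within 1.5-fold either way. Against CFAE+8, the reference that both share, CFAE+8+MSC had 2409 genes higher (15.6%) and 2129 lower (13.8%), and CFAE+6 had 2215 higher (14.3%) and 1901 lower (12.3%). The first principal component of the 4 libraries held 48.0% of the variance and separated the groups, and the second, with 27.4%, separated replicate 1 from replicate 2 in both groups. The number of calls leaned on single libraries: without CFAE+6 replicate 2 it was 573 higher and 350 lower, without CFAE+8+MSC replicate 1 it was 629 and 359, and without CFAE+8+MSC replicate 2 it was 703 and 439. DESeq2's Wald test called 617 genes higher and 317 lower.

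**Figure D1:**
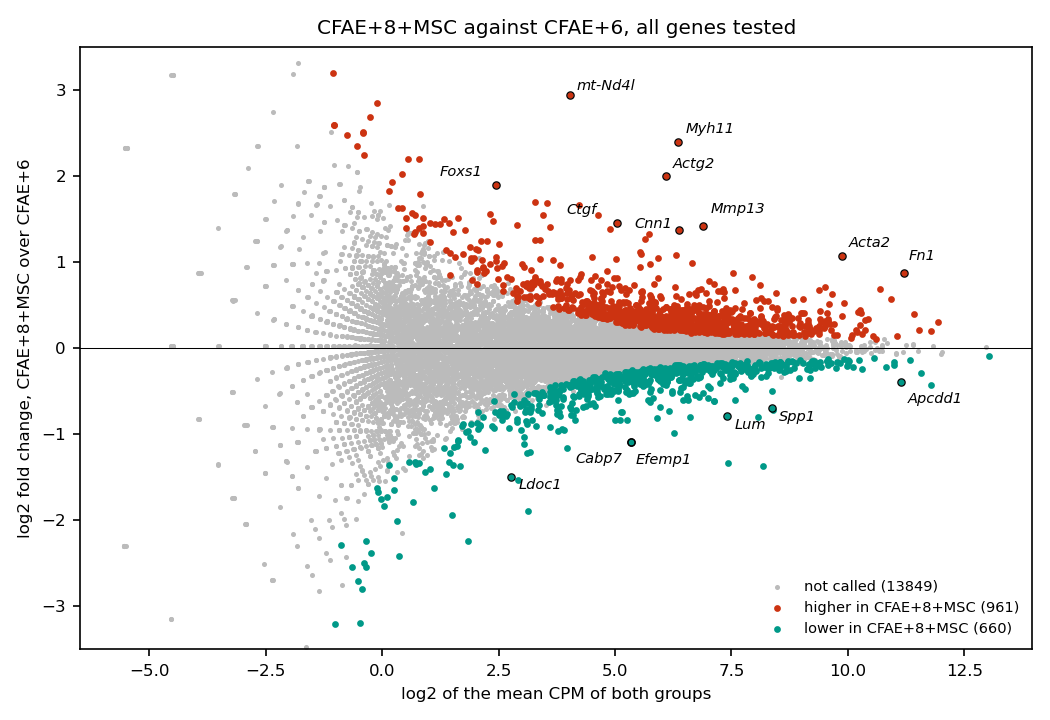
Log2 fold change of CFAE+8+MSC over CFAE+6 (y axis) against the log2 mean CPM of the groups (x axis) for the genes tested. Called genes are in colour, and some called genes, chosen by hand, are named. The 17 genes beyond the axis are not drawn. Most points lie close to 0, with 961 genes called higher and 660 called lower.

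The difference between the cocktails also followed gene length, taken as the exon bases listed in the deposited table. Among the shortest of 6 length classes (57 to 1851 bases) the median log2 fold change was -0.06, with 63 genes higher and 126 lower. Among the longest (7897 to 123179 bases) it was 0.08, with 408 genes higher and 66 lower. Replicate 1 over replicate 2 of CFAE+6 gave medians from -0.05 in the shortest to 0.05 in the longest class, and the same ratio within CFAE+8+MSC gave -0.03 to 0.01. With offsets that remove this trend, an alternative chosen after seeing the data, 799 genes were higher and 656 lower, and the longest class held 195 higher and 160 lower. What part length had in any single difference was not tested. With the offsets, the log2 fold changes of genes named below moved by unlike amounts. Myh11 went from 2.40 to 2.36, Actg2 from 2.00 to 2.06 and Acta2 from 1.08 to 1.13. Col12a1 went from 0.41 to 0.28, Pfkp from 0.46 to 0.35, Cald1 from 0.37 to 0.27 and Peg3 from 0.26 to 0.15.

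**Figure D2:**
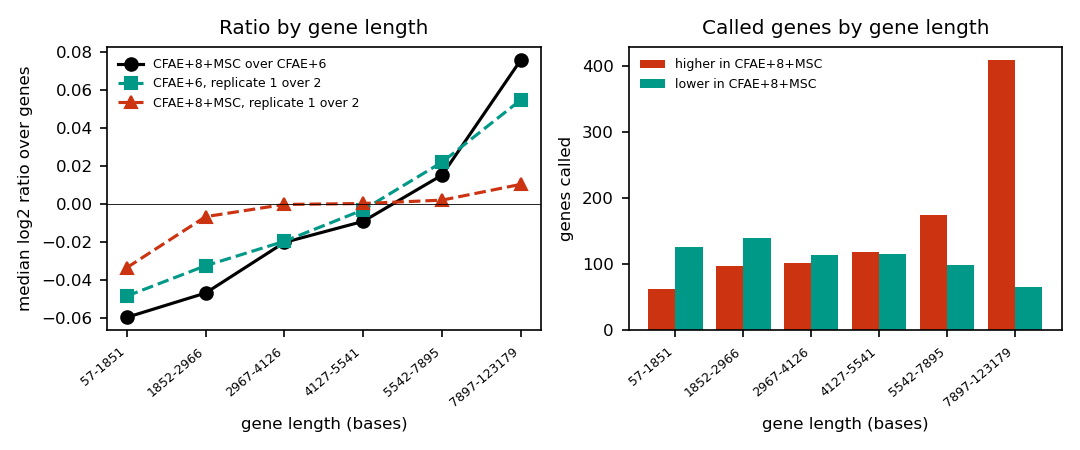
Left, the median log2 ratio in 6 classes of gene length (x axis) for CFAE+8+MSC over CFAE+6 and, within each group, for replicate 1 over replicate 2; right, the number of genes called higher and lower in each class. The median between the groups goes from -0.06 to 0.08, and the longest class holds 408 of the 961 higher genes.

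Most genes of the smooth muscle contractile apparatus were higher in CFAE+8+MSC. Of 24 such genes, all tested, 18 were higher and 0 lower, against 6.21% and 4.27% of all genes, and their median log2 fold change was 0.50 against -0.004 for all genes tested. Their summed level was 8795 and 8803 CPM with CFAE+8+MSC and 6102 and 6055 CPM with CFAE+6. It was 4645 CPM on average in CFAE+8 and 13066 CPM in fibroblast medium. The shares of 6.21% higher and 4.27% lower over all genes tested also stand beside the counts of all lists below. The count of 18 was 16 to 18 when any 1 library was left out, 17 with DESeq2, 18 with the length offsets and 13 when the test was set against a 1.2-fold change.

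Myh11, the smooth muscle myosin heavy chain (ENSMUSG00000018830, mm10 chromosome 16, 14194535-14291372, minus strand), stood at 137 and 139.7 CPM in the CFAE+8+MSC libraries and 27.1 and 25.4 CPM in the CFAE+6 libraries. The CFAE+8 libraries held 1.79 and 1.44 CPM and those in fibroblast medium 43.1 and 51.5 CPM, so the CFAE+8+MSC libraries lay above all 6 others. The log2 fold change between the cocktails was 2.40 ± 0.08 (adjusted p = 3e-18). Actg2, enteric smooth muscle gamma-actin (ENSMUSG00000059430, chromosome 6, 83512905-83536265, minus strand), stood at 109.7 and 108 CPM against 25.7 and 28.9 CPM. Its CFAE+8 libraries held 1.37 and 1.36 CPM and those in fibroblast medium 170.1 and 161 CPM. Here CFAE+8+MSC lay above CFAE+6 and below fibroblast medium, with a log2 fold change of 2.00 ± 0.08 (adjusted p = 1.24e-17). Acta2, the alpha smooth muscle actin that defines myofibroblasts (ENSMUSG00000035783, chromosome 19, 34241090-34255336, minus strand), was read at 1278 and 1259 CPM with CFAE+8+MSC and 597 and 606 CPM with CFAE+6. CFAE+8 gave 65.5 and 63.3 CPM and fibroblast medium 2677 and 2651 CPM. The 4 groups did not overlap, and CFAE+8+MSC exceeded CFAE+6 by 1.08 ± 0.04 (adjusted p = 3e-18).

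Cnn1, calponin, an actin-binding regulator of contraction, showed the same order of the cocktails, with 122 and 116 CPM in CFAE+8+MSC, 47.2 and 44.8 CPM in CFAE+6 and 8.54 and 9.16 CPM in CFAE+8. Its log2 fold change was 1.37 ± 0.07 (adjusted p = 1.37e-14). Mylk, the kinase that phosphorylates myosin light chain, stood at 65.2 and 62.4 CPM against 28 and 30.7 CPM, a difference of 1.12 ± 0.09 (adjusted p = 1.57e-10). The light chain gene Myl9 stood at 239.7 and 237 CPM against 131 and 130.0 CPM, a difference of 0.87 ± 0.05 (adjusted p = 9.06e-13). The actin nucleator Lmod1 differed by 1.05 ± 0.12, from 29.9 and 31.2 CPM to 12.7 and 16.7 CPM. In each of these genes both CFAE+8+MSC libraries lay above both CFAE+6 libraries, which holds for 25.0% of all genes tested. Smaller differences were called in the tropomyosins Tpm1 (0.42) and Tpm2 (0.52), caldesmon Cald1 (0.37), filamin A Flna (0.40) and desmin Des (0.86). Tagln, transgelin, was read at 3.29 and 1.54 CPM against 1.5 and 2.14 CPM and was not called (0.41 ± 0.36, adjusted p = 0.554). In the annotation 67.9% of its exon bases lie within exons of other genes, so its count is uncertain. The other members that were not called were Synm, Aoc3, Casq2, Ppp1r12b and Ppp1r14a.

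**Figure D3:**
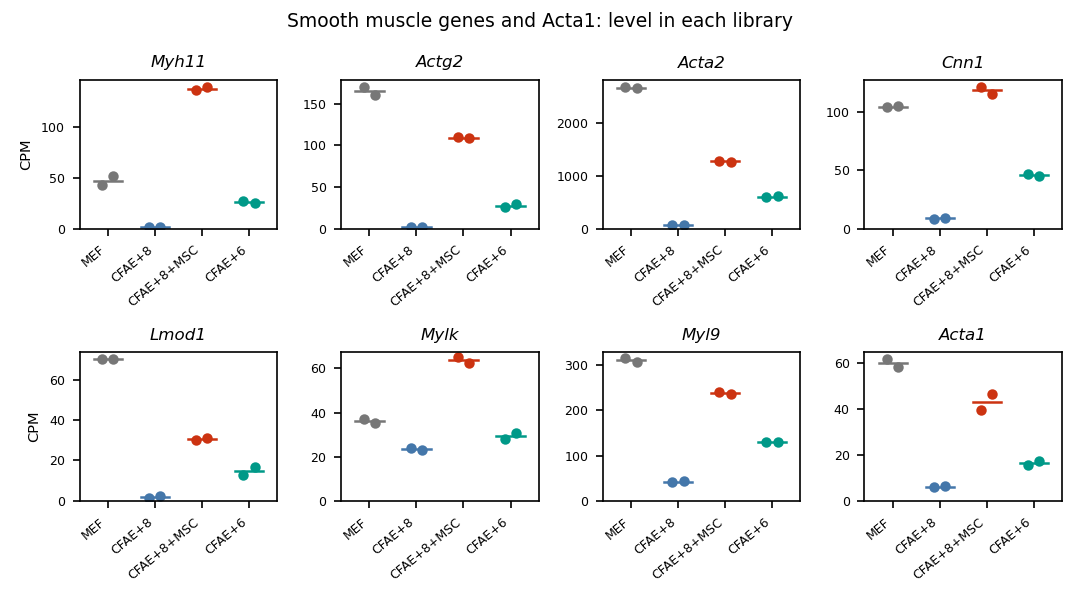
CPM per library (points, linear axis) and group means (lines) of Myh11, Actg2, Acta2, Cnn1, Lmod1, Mylk, Myl9 and Acta1 in fibroblast medium, CFAE+8, CFAE+8+MSC and CFAE+6. In all 8 panels both CFAE+8+MSC points lie above both CFAE+6 points, and the CFAE+8 points are lowest.

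Some actin and adhesion genes outside the smooth muscle list were also higher. Acta1, skeletal alpha-actin, stood at 39.7 and 46.5 CPM against 15.7 and 17.3 CPM, a log2 fold change of 1.38 ± 0.11 (adjusted p = 1.7e-10). Fhl1, a LIM-domain protein of muscle, stood at 112 and 104 CPM against 52.8 and 48.9 CPM (1.08 ± 0.08), and the LIM protein gene Csrp1 at 325 and 305 CPM against 176 and 180.2 CPM (0.82 ± 0.05). These 3 genes and Nexn, an actin-filament protein (0.97 ± 0.15), were named with their values in view. Among 24 regulators and targets of SRF, myocardin and YAP, 7 were higher and 1 lower, with a median of 0.11. The largest was Ctgf, a secreted matricellular target of YAP and TGF-beta, at 47.3 and 49.7 CPM against 17.3 and 18 CPM, with 8.19 and 8.14 CPM in CFAE+8 and 602 and 604 CPM in fibroblast medium. Its difference between the cocktails was 1.46 ± 0.08 (adjusted p = 6.52e-14). Vcl, vinculin, which ties actin to focal adhesions, stood at 351 and 341 CPM against 215 and 201 CPM (0.73 ± 0.05, adjusted p = 2.08e-11). Ankrd1, a muscle ankyrin repeat protein, differed by 0.78 ± 0.15 and beta-actin Actb by 0.19 ± 0.03. Egr1, an immediate early transcription factor, was the lower member at 61.7 and 61.4 CPM against 86.6 and 87.6 CPM (-0.50 ± 0.06). Exons of other genes cover 23.2% of the Ctgf and 25.5% of the Vcl exon bases, which limits both counts. Of the transcriptional regulators on the list, Srf, Mkl1, Yap1 and Myocd were not called. Srf differed by 0.02 ± 0.07 (95% interval -0.12 to 0.16), Mkl1, a myocardin-related cofactor, by 0.07 ± 0.08, Yap1 by 0.09 ± 0.05 and Myocd, at 3.2 and 4.16 CPM against 2.82 and 3.42 CPM, by 0.23 ± 0.30 (95% interval -0.37 to 0.84). Cyr61, the paralogue of Ctgf, was not called either (0.13 ± 0.04, adjusted p = 0.0539). With the length offsets it was called higher (0.18, adjusted p = 0.00343 by edgeR).

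The promoters of the higher genes were searched for the CArG box, the sequence that SRF binds. Only its strict form CCWWWWWWGG was counted, where W is A or T, so forms with a G or C inside were missed. Both strands were searched in windows of 250 bases before to 50 after the start site from RefSeq (GRCm38.p6). The box occurred in 535 of 32851 windows (1.63%), in those of 186 of 11033 tested genes with a window (1.69%), in 29 of 702 higher genes (4.13%) and in 5 of 482 lower genes (1.04%). The letters GGAATG on either strand, part of the element bound by the TEAD partners of YAP, occurred in 14.7% of all windows, 14.4% of tested, 18.5% of higher and 15.8% of lower genes. A match describes the letters only, and a missing match says nothing about the factor. The 250 bases upstream of the start site are shown 5′ to 3′ on the gene's strand for 4 higher genes with a box, in capitals, and for Acta2. They are shown as actin and adhesion genes with large differences, chosen after their values were seen. No strict box was found in Acta2, but its sequence holds the near forms ccctatatgg and ccttgtttgg, which were not counted. The box starts 73 bases upstream of the start site in Acta1 (chr8:123894776-123895025, minus strand), 161 in Myl9 (chr2:156775214-156775463, plus strand), 227 in Vcl (chr14:20929148-20929397, plus strand) and 102 in Fhl1 (chrX:56779433-56779682, plus strand). The Acta2 window is chr19:34255374-34255623 on the minus strand. A second window of Fhl1 (chrX:56786277-56786526, plus strand) held no box. Of the 24 smooth muscle genes 19 had a window, and those of Myl6 and Myl9 were the only 2 with a strict box. Windows for Actg2, Myh11, Tagln and Aoc3 were not used here.
Acta1: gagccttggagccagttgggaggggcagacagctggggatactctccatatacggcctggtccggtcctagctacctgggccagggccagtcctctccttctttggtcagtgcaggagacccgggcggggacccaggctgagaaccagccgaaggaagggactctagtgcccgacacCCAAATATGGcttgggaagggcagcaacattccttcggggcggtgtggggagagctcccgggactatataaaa
Myl9: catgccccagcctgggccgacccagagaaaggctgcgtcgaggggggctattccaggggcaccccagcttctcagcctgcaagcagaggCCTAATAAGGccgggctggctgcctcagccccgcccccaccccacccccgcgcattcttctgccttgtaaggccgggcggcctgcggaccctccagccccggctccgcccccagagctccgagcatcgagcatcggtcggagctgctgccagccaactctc
Vcl: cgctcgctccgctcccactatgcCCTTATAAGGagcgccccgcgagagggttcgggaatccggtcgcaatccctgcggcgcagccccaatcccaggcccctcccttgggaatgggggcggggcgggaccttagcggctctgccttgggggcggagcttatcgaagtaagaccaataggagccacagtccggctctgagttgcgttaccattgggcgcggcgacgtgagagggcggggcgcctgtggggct
Fhl1: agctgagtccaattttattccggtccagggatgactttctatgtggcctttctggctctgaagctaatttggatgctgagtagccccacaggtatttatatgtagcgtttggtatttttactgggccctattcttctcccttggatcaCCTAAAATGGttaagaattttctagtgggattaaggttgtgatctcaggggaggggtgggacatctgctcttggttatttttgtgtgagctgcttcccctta
Acta2: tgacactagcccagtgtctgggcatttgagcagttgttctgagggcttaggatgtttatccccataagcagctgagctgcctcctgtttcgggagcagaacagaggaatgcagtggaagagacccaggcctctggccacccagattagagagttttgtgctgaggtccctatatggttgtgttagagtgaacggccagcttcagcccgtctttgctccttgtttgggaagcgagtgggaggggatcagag

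Among targets of TGF-beta itself, more were higher than lower in CFAE+8+MSC. Of 26 listed targets, 13 were higher and 2 lower, against 6.21% and 4.27% of all genes tested, with a median log2 fold change of 0.30. With the test set against a 1.2-fold change, 8 were higher and 0 lower. Fn1, fibronectin, the matrix glycoprotein that TGF-beta induces in fibroblasts (chromosome 1, 71585520-71653200, minus strand), stood at 3011 and 3100.5 CPM with CFAE+8+MSC and 1673 and 1668 CPM with CFAE+6. It stood at 2410.0 and 2420.2 CPM with CFAE+8, between the other cocktails. The difference was 0.87 ± 0.03 (adjusted p = 3.83e-18). Set against CFAE+8, whose libraries both share, the log2 fold change of Fn1 was 0.34 for CFAE+8+MSC and -0.53 for CFAE+6. Thbs1, thrombospondin, which releases TGF-beta from its latent form, stood at 982 and 988 CPM against 649 and 621 CPM (0.63 ± 0.03). Both cocktails lay far below the 11356 and 11974 CPM of fibroblast medium. Tnc, tenascin C, stood at 1988 and 2054 CPM against 1285 and 1232 CPM (0.68 ± 0.04, adjusted p = 3.72e-14).

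The feedback genes Smad7, Skil and Pmepa1 were higher as well. Smad7, the inhibitory SMAD, stood at 79.8 and 78.7 CPM against 57.4 and 56.9 CPM (0.47 ± 0.07), Skil, a SMAD corepressor, differed by 0.61 ± 0.08, and Pmepa1, which binds SMADs, by 0.43 ± 0.06. The cytokine Il11 stood at 19.1 and 19.4 CPM against 12.3 and 11.3 CPM (0.70 ± 0.16, adjusted p = 0.0027). Some other listed targets were not called. Postn, periostin, differed by 0.12 ± 0.05 (95% interval 0.02 to 0.21, adjusted p = 0.127), the cross-linking enzyme Lox by 0.02 ± 0.07, and Col1a2 by 0.02 ± 0.03, each with an interval inside 1.5-fold. Col3a1 was lower at 1631 and 1703 CPM against 1929 and 1953 CPM (-0.22 ± 0.03), and so was the cell cycle inhibitor Cdkn2b (-0.35 ± 0.06).

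The ligands and receptors of the family divided evenly. Of 31 ligands, receptors and SMADs, 6 were higher and 6 lower (median 0.02). Among ligands, Tgfb2 stood at 541 and 529.6 CPM against 365 and 359 CPM (0.56 ± 0.05, adjusted p = 5.52e-10) and Tgfb3 at 138 and 132 CPM against 83.3 and 86.1 CPM (0.67 ± 0.06, adjusted p = 3.48e-09). Inhba, the activin A subunit, was higher by 0.35 ± 0.05, whereas its relative Inhbb was lower at 918 and 952 CPM against 1052 and 1116 CPM (-0.21 ± 0.04). The bone morphogenetic proteins Bmp2 (-0.31 ± 0.06) and Bmp7 (-0.36 ± 0.06) were lower. Among receptors, the co-receptor Tgfbr3 was lower at 100.3 and 99.3 CPM against 129 and 124 CPM (-0.34 ± 0.06). Tgfbr1, which encodes the receptor that A-83-01 and E-616452 inhibit, differed by 0.11 ± 0.08 (95% interval -0.05 to 0.27) and the signal transducer Smad3 by -0.06 ± 0.06, and neither was called. Of 18 BMP response and antagonist genes, 6 were higher and 1 lower (median 0.10). They included the homeobox gene Msx1 (0.27 ± 0.05), the inhibitor of differentiation Id2 (0.31 ± 0.06) and Grem1, a secreted BMP antagonist, at 155 and 149 CPM against 111 and 107 CPM (0.49 ± 0.06, adjusted p = 4.98e-07). The lower member was the antagonist Nbl1 (-0.26 ± 0.05).

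Matrix genes differed in both directions. Of 35 remodelling enzymes and inhibitors, 15 were higher and 6 lower (median 0.17), of 26 collagen genes 11 were higher and 5 lower (median 0.16), and of 43 glycoproteins, proteoglycans and elastic fibre genes 16 were higher and 7 lower (median 0.25). Mmp13, an interstitial collagenase (chromosome 9, 7272514-7283331, plus strand), stood at 169.8 and 177 CPM with CFAE+8+MSC, 65.5 and 64.4 CPM with CFAE+6, 61.9 and 68.3 CPM with CFAE+8 and 53.9 and 58.8 CPM in fibroblast medium. The CFAE+8+MSC libraries lay above the 6 others, with a difference from CFAE+6 of 1.42 ± 0.07 (adjusted p = 1.41e-15), whereas CFAE+6 against CFAE+8 gave -0.0035. Mmp9, a gelatinase, stood at 73.4 and 68 CPM against 29.1 and 29.8 CPM (1.26 ± 0.10, adjusted p = 3.19e-10), with 30.0 and 27.5 CPM in CFAE+8. The membrane-anchored Mmp17, chosen after its values were seen, stood at 72.6 and 78.5 CPM against 30.1 and 30.0 CPM (1.33 ± 0.09). Timp3, a matrix-bound inhibitor of metalloproteinases, stood at 176 and 176 CPM against 113 and 97.2 CPM (0.74 ± 0.06), and Mmp11 differed by 0.43 ± 0.04. Mmp19 (-0.63 ± 0.12) and Mmp23 (-0.92 ± 0.17) were lower. Exons of other genes cover 21.3% of the Timp3 and 28.3% of the Mmp19 exon bases.

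Among collagens, Col8a1, a short-chain collagen of vessel walls, stood at 61.7 and 67.6 CPM against 30.1 and 30.2 CPM (1.10 ± 0.08, adjusted p = 2.1e-11). Col6a3 stood at 2306 and 2367 CPM against 1568 and 1574 CPM (0.57 ± 0.04, adjusted p = 1.79e-12), while its partner chain gene Col6a1 differed by -0.05 ± 0.03 and was not called. Col5a3 (0.69 ± 0.07), Col12a1 (0.41 ± 0.04), Col1a1 (0.30 ± 0.03) and the basement membrane chains Col4a1 (0.30 ± 0.04) and Col4a2 (0.33 ± 0.05) were higher. Col15a1 was lower at 13.7 and 11.6 CPM against 21.2 and 23.8 CPM (-0.83 ± 0.15). Among glycoproteins, Spon2 stood at 84.8 and 78.9 CPM against 39.3 and 39.8 CPM (1.05 ± 0.09, adjusted p = 4.76e-10) and Fbln2, fibulin 2, at 817 and 819 CPM against 508 and 516 CPM (0.68 ± 0.04, adjusted p = 3.72e-14). Fbln5 (0.59 ± 0.07), fibrillin Fbn2 (0.55 ± 0.05), the laminin chain gene Lama1 (0.50 ± 0.07) and nidogen Nid1 (0.52 ± 0.04) were higher, and elastin, Eln, was lower at 24.2 and 30.9 CPM against 47.6 and 50.4 CPM (-0.83 ± 0.10). Integrin and adhesion genes, the receptors of this matrix, had 7 of 26 higher and 2 lower (median 0.16). Itga5, whose product with integrin beta 1 binds fibronectin, stood at 343 and 333 CPM against 231 and 221 CPM (0.58 ± 0.05, adjusted p = 4.34e-10), and Itgb3 (0.69 ± 0.10), Itgav (0.46 ± 0.05) and Itgb1 (0.33 ± 0.04) were higher. With the length offsets, 14 glycoprotein and 10 collagen genes were called higher. Lower collagen genes numbered 3, not 5, without CFAE+8+MSC replicate 1 or CFAE+6 replicate 2, and lower integrin and adhesion genes 1 to 3 when a library was left out.

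The matrix genes Efemp1, Lum and Dcn were lower in CFAE+8+MSC. Efemp1, fibulin 3 (ENSMUSG00000020467, chromosome 11, 28853204-28926743, plus strand), stood at 26.2 and 25.8 CPM with CFAE+8+MSC, 58.8 and 52.2 CPM with CFAE+6, 63.4 and 63.5 CPM with CFAE+8 and 232 and 234 CPM in fibroblast medium. The CFAE+8+MSC libraries were lowest of all 8, with a difference of -1.09 ± 0.08 from CFAE+6 (adjusted p = 5.34e-11). Lum, lumican, a collagen-binding proteoglycan, stood at 128 and 122 CPM against 232 and 200.4 CPM (-0.79 ± 0.06, adjusted p = 2.14e-10). Dcn, decorin, which binds collagen and TGF-beta, stood at 76.6 and 65.4 CPM against 125 and 122 CPM (-0.80 ± 0.07, adjusted p = 6.84e-10). For both genes CFAE+6 lay above CFAE+8, at 90.7 and 94.1 CPM for Lum and 83.8 and 83.9 CPM for Dcn. Spp1, osteopontin, stood at 259 and 244 CPM against 405 and 411 CPM (-0.70 ± 0.05, adjusted p = 9.36e-12), Agtr2, the angiotensin type II receptor, at 259 and 249.6 CPM against 430.0 and 404 CPM (-0.71 ± 0.05), and Igfbp5, an insulin-like growth factor binding protein, at 281 and 269 CPM against 407 and 372 CPM (-0.50 ± 0.05). Apoe, apolipoprotein E, was also lower (-0.84 ± 0.10). Agtr2, Igfbp5 and Apoe were chosen after their values were seen.

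**Figure D4:**
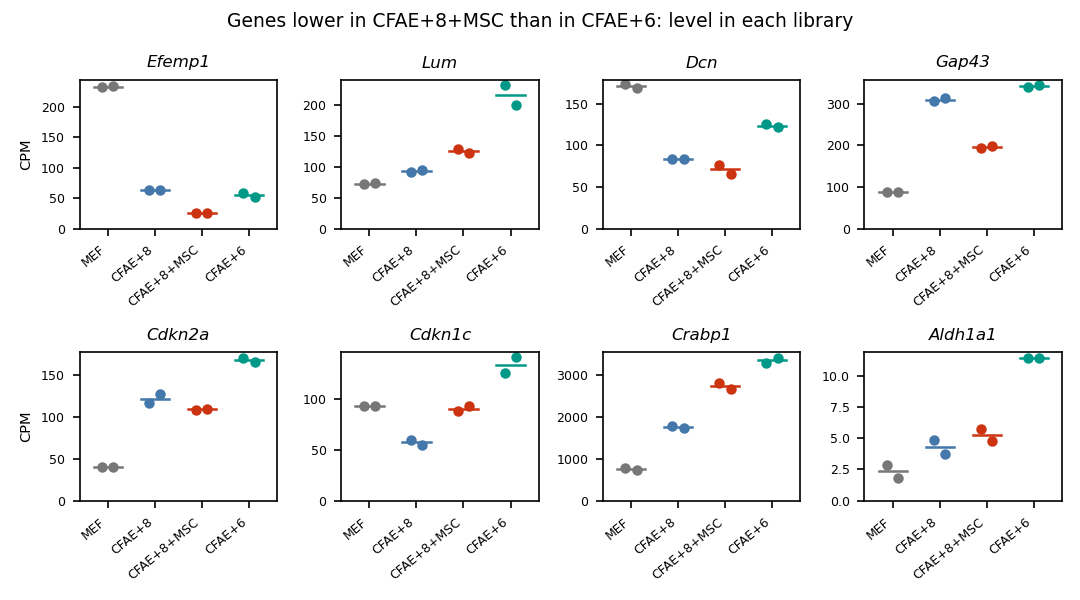
CPM per library (points, linear axis) and group means (lines) of Efemp1, Lum, Dcn, Gap43, Cdkn2a, Cdkn1c, Crabp1 and Aldh1a1 in fibroblast medium, CFAE+8, CFAE+8+MSC and CFAE+6. In all 8 panels both CFAE+8+MSC points lie below both CFAE+6 points.

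By size, the rule for the 15 largest differences each way also named genes outside these groups. Higher in CFAE+8+MSC were Foxs1, a forkhead transcription factor of perivascular cells, at 8.23 and 8.95 CPM against 2.2 and 2.4 CPM (1.89 ± 0.24, adjusted p = 1.15e-06), and Apold1, an endothelial early response gene, at 13.6 and 16.3 CPM against 4.05 and 5.14 CPM (1.70 ± 0.21). Slc17a8, a vesicular glutamate transporter, stood at 17.5 and 18.2 CPM against 5.2 and 5.82 CPM (1.69 ± 0.21), Bmp8b at 16.6 and 16.1 CPM against 5.55 and 5.65 CPM (1.54 ± 0.19) and the cell adhesion gene Ceacam1 at 6.84 and 8.05 CPM against 2.03 and 3 CPM (1.56 ± 0.32). These 5 genes were low in CFAE+8, where each library held less than 2 CPM. C1ql3 (1.47 ± 0.28), Gpr149 (1.43 ± 0.20) and C1qtnf3 (1.40 ± 0.14) were also higher. The count of mt-Nd4l, a subunit of mitochondrial complex I, gave 31.1 and 26.5 CPM against 3.26 and 4.19 CPM (2.94 ± 0.19). Of its 50-base words, 98.8% also occur in other annotated genes, so this value is uncertain, and of 13 mitochondrially encoded genes only mt-Nd4l and mt-Co2 were called, both higher (median 0.03). All words of mt-Co2 occur elsewhere too, and its call, from 44.1 and 81.8 CPM in CFAE+8+MSC against 43.2 and 44 CPM, was lost without CFAE+8+MSC replicate 2 or either CFAE+6 library. C1ql3 shares 61.7% and Ceacam1 30.4% of such words.

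The largest falls included Ldoc1, at 3.72 and 3.44 CPM against 9.08 and 11.1 CPM (-1.49 ± 0.23, adjusted p = 3.2e-05), and Cabp7, a calcium-binding protein, at 25.3 and 26.5 CPM against 53 and 57.3 CPM (-1.09 ± 0.10). Brinp3 stood at 9.35 and 10.04 CPM against 20.9 and 22.4 CPM, with 22.2 and 20.6 CPM in CFAE+8, so CFAE+8+MSC was the lowest of the cocktails (-1.16 ± 0.14, adjusted p = 1.11e-06). For Rps27a, a ribosomal protein fused to ubiquitin, CFAE+6 lay above the 6 other libraries, at 444 and 391 CPM against 161 and 163 CPM in CFAE+8+MSC, 177 and 164 CPM in CFAE+8 and 166 and 144 CPM in fibroblast medium (-1.37 ± 0.06, adjusted p = 1.41e-15). It shares 26.3% of its 50-base words with other annotated genes. Scn3b, a sodium channel subunit, was lower (-0.96 ± 0.16), as were S100a13 (-0.95 ± 0.20), selenoprotein P, Selenop (-0.95 ± 0.14), and the leukotriene receptor Ltb4r1 (-0.94 ± 0.18). Sfrp5, a secreted Wnt antagonist, at 4.85 and 5.52 CPM against 9.96 and 14.1 CPM (-1.22 ± 0.25), and Amelx (-1.19 ± 0.28) lost their calls without CFAE+6 replicate 2, with adjusted p-values of 0.0672 and 0.0802. Vstm2a (-1.03 ± 0.23) lost its call without CFAE+8+MSC replicate 1 or CFAE+6 replicate 1, and Hist1h4i (-1.09 ± 0.29) without CFAE+8+MSC replicate 2 or CFAE+6 replicate 2. Rpl17, at 53.5 and 49.8 CPM against 143 and 63.4 CPM, was highest in CFAE+6 replicate 1, and its call was lost without that library or either CFAE+8+MSC library. It shares 44.7% of its 50-base words with other annotated genes.

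Some p53 target and senescence genes were lower, and most genes of this list and of the cell cycle lists were close between the cocktails. Over all genes tested, 4.27% were lower and 6.21% higher. Of 25 p53 target and senescence genes, 8 were lower and 1 higher (median -0.05), and 5 were lower without CFAE+8+MSC replicate 1 and without either CFAE+6 library, as with DESeq2. Of the list, 20 genes had an interval within 1.5-fold. With the test set against a 1.2-fold change, 2 were lower and 1 higher. Cdkn2a, the Ink4a/Arf locus that enforces senescence (chromosome 4, 89274471-89294653, minus strand), stood at 109 and 110.0 CPM with CFAE+8+MSC, 171 and 166 CPM with CFAE+6, 117 and 127 CPM with CFAE+8 and 40.4 and 40.4 CPM in fibroblast medium. Its difference of -0.62 ± 0.06 (adjusted p = 9.04e-09) was one in which CFAE+6 lay above every other group. Cdkn1c, p57, an imprinted inhibitor of cyclin-dependent kinases, stood at 88.3 and 92.7 CPM against 126 and 142 CPM (-0.57 ± 0.07, adjusted p = 3.89e-07), and exons of other genes cover 30.7% of its exon bases. Mdm2, the ubiquitin ligase of p53, was lower (-0.19 ± 0.05). The death receptor Fas (-0.51 ± 0.15) lost its call without CFAE+8+MSC replicate 2 or either CFAE+6 library. Perp, a p53 target of cell adhesion, was higher at 69.9 and 66.9 CPM against 43.8 and 50.7 CPM (0.53 ± 0.08). Cdkn1a, p21, the best-known p53 target, differed by 0.03 ± 0.04 (95% interval -0.05 to 0.12) and was not called. Of 39 DNA replication and G1/S genes, 2 were higher and 0 lower, and 36 had an interval within 1.5-fold. The called members were the polymerase Pole (0.37 ± 0.08), lost without CFAE+6 replicate 2, and E2f8 (0.26 ± 0.08), lost without any 1 of the 4 libraries, and the length offsets gave 5 higher. Of 30 mitosis genes, 3 were higher and 0 lower, with 29 inside 1.5-fold. Mki67, the proliferation antigen, was higher by 0.33 ± 0.06, and it was the only 1 of the 3 called when CFAE+8+MSC replicate 1, CFAE+8+MSC replicate 2 or CFAE+6 replicate 2 was left out.

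Targets of retinoic acid, the pathway that AM580 acts on, were lower more often than higher. Of 19 retinoic acid targets, 7 were lower and 2 higher (median -0.22), against 4.27% and 6.21% of all genes tested. Aldh1a1, a retinaldehyde dehydrogenase that makes retinoic acid (chromosome 19, 20492715-20643462, plus strand), stood at 5.72 and 4.79 CPM against 11.4 and 11.4 CPM (-1.11 ± 0.21, adjusted p = 0.000473). Crabp1, a retinoic acid binding protein, stood at 2812 and 2671 CPM against 3298 and 3422 CPM (-0.29 ± 0.04), with 1797 and 1750.1 CPM in CFAE+8, and its relative Crabp2 differed by -0.51 ± 0.09. The receptor gene Rarg (-0.30 ± 0.06) and Cyp26b1, which degrades retinoic acid (-0.23 ± 0.05), were lower. Stra6, a retinol transporter, was higher at 515 and 475 CPM against 389.8 and 389 CPM (0.35 ± 0.05, adjusted p = 9.67e-06), although it was higher still in CFAE+8, at 753 and 738 CPM. Rarb, a direct retinoic acid target, differed by -0.22 ± 0.10 (adjusted p = 0.209), but exons of other genes cover 38.4% of its exon bases. Aldh1a2 (-0.35 ± 0.11) lost its call with the length offsets and without 3 of the 4 libraries in turn. With the test set against a 1.2-fold change, 1 member was lower and 0 higher.

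Of 19 Wnt/beta-catenin targets, 3 were higher and 4 lower (median 0.05), against 6.21% and 4.27% of all genes tested. Without CFAE+8+MSC replicate 1 it was 3 and 2, without CFAE+8+MSC replicate 2 it was 2 and 3, and without CFAE+6 replicate 2 it was 1 and 3. Axin2, a direct target and feedback inhibitor, stood at 370.4 and 385 CPM against 356 and 375 CPM, with a difference of 0.05 ± 0.05 (95% interval -0.05 to 0.14), and Nkd1 differed by 0.02 ± 0.05. Neither was called. Apcdd1, a membrane inhibitor of Wnt signalling, was lower at 1924 and 1982 CPM against 2548 and 2583 CPM (-0.39 ± 0.03, adjusted p = 1.16e-09), and so was the receptor Tnfrsf19 (-0.23 ± 0.05). Notum (-0.21 ± 0.05) lost its call without CFAE+8+MSC replicate 1 or CFAE+6 replicate 2, and Sp5 (0.29 ± 0.07), which was higher, without CFAE+6 replicate 2. Exons of other genes cover 38.1% of the Notum exon bases. The higher members included the feedback inhibitor Nkd2 (0.39 ± 0.06). Of 35 Wnt ligands, receptors and secreted antagonists, 4 were higher and 6 lower (median -0.01), and without CFAE+8+MSC replicate 1 it was 2 and 3. Wnt2b (0.38 ± 0.07) and the receptor Fzd7, at 138 and 139 CPM against 103 and 95.9 CPM (0.47 ± 0.06, adjusted p = 1.29e-06), were higher, and the antagonists Sfrp1 (-0.40 ± 0.07) and Dkk2 (-0.37 ± 0.07) lower. Without CFAE+6 replicate 2, these counts were 2 and 3.

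Of 23 cAMP/CREB targets, 5 were higher and 1 lower (median 0.10), against 6.21% and 4.27% of all genes tested. Without CFAE+8+MSC replicate 2 it was 3 and 0, and without CFAE+6 replicate 1 it was 3 and 2. Vgf, a secreted neuropeptide precursor, stood at 137 and 131 CPM with CFAE+8+MSC, 62.8 and 71.6 CPM with CFAE+6 and 6.23 and 4.92 CPM with CFAE+8, so both cocktails lay above CFAE+8 and CFAE+8+MSC above CFAE+6 (0.99 ± 0.07, adjusted p = 8.31e-11). Dusp1, a phosphatase of MAP kinases, stood at 98 and 96.6 CPM against 59.3 and 60.1 CPM (0.70 ± 0.07, adjusted p = 1.05e-08), and the phosphodiesterase Pde3a was higher by 0.43 ± 0.08. Areg, amphiregulin, was lower (-0.53 ± 0.12), a call lost without CFAE+8+MSC replicate 2. Of 25 immediate early genes, 3 were higher and 1 lower (median 0.03), and of 16 ERK feedback genes 4 and 1 (median -0.01). The ERK feedback counts were 1 and 1 without CFAE+8+MSC replicate 1, 3 and 2 without either CFAE+6 library, and 5 and 4 with the length offsets. Ier3, a survival gene on both lists, stood at 190.4 and 175 CPM against 113 and 117 CPM (0.67 ± 0.06, adjusted p = 2.1e-09). Ier5 (0.23 ± 0.07), Dusp4 (0.28 ± 0.06) and Etv5 (0.18 ± 0.05) lost their calls without 1 or more of the libraries, Dusp4 without CFAE+8+MSC replicate 1.

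Inflammatory genes differed in both directions. The share over all genes tested was 6.21% higher and 4.27% lower. Of 23 pro-inflammatory and NF-kappa-B genes, 9 were higher and 2 lower (median 0.22). Cxcl5, a neutrophil chemokine, stood at 6.67 and 9.32 CPM with CFAE+8+MSC, 3.35 and 3.51 CPM with CFAE+6, 14 and 15 CPM with CFAE+8 and 28.2 and 27.1 CPM in fibroblast medium. It was lowest in CFAE+6, with a difference of 1.21 ± 0.21 (adjusted p = 0.000177). The monocyte chemokine Ccl7 stood at 73.5 and 64.3 CPM against 48.5 and 47.4 CPM (0.52 ± 0.08), and Nfkbiz, a nuclear regulator of NF-kappa-B, at 32 and 30.6 CPM against 21.2 and 20.5 CPM (0.58 ± 0.10). Ptgs2, cyclooxygenase 2, was higher by 0.45 ± 0.07, and Ccl2 by 0.48 ± 0.10, a call lost without CFAE+6 replicate 2. Icam1, a leukocyte adhesion molecule, was lower at 15.9 and 14.4 CPM against 24.9 and 24.1 CPM (-0.69 ± 0.11, adjusted p = 7.14e-05). Without CFAE+8+MSC replicate 1 or CFAE+6 replicate 2 the list held 6 higher genes. Of 32 interferon-stimulated genes, 0 were higher and 3 lower (median -0.24), among them Stat2, at 16.4 and 16.3 CPM against 23.4 and 22.7 CPM (-0.50 ± 0.11), and Ifitm3 (-0.33 ± 0.06). The median was -0.10 without CFAE+6 replicate 2. Of 13 MHC class I and antigen presentation genes, 0 were higher and 4 lower (median -0.36), but 2 were lower without either CFAE+8+MSC library, 3 without CFAE+6 replicate 1 and 1 without CFAE+6 replicate 2. The 4 were H2-Q4, the peptide transporters Tap1 (-0.41 ± 0.09) and Tap2, and Tapbp. Exons of other genes cover 29.0% of the Tapbp exon bases, and 36.4% of the 50-base words of H2-Q4 occur in other genes. Of 25 interleukin and IL-6 family receptors, 2 were higher and 4 lower (median -0.05). This was 0 and 0 without CFAE+6 replicate 2, 2 and 2 without CFAE+6 replicate 1, 1 and 2 without CFAE+8+MSC replicate 1, 0 and 1 without CFAE+8+MSC replicate 2, and 1 and 0 in a fit of the 4 libraries alone. Il1rl1, the IL-33 receptor, was lower (-0.53 ± 0.13), a call lost without CFAE+8+MSC replicate 1 or CFAE+6 replicate 2.

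Metabolic genes were mostly close. Of 25 cholesterol biosynthesis genes, 2 were higher and 1 lower, and 23 had an interval within 1.5-fold (median 0.01). Of 29 oxidative phosphorylation genes, 0 were higher and 4 lower, with 28 inside 1.5-fold (median -0.09), and 1 was lower without CFAE+8+MSC replicate 1 or CFAE+6 replicate 2. Of 24 glycolysis and hypoxia genes, 6 were higher and 1 lower (median 0.11). Slc16a3, the lactate exporter, stood at 35.1 and 38.6 CPM against 19.1 and 20.3 CPM (0.90 ± 0.10, adjusted p = 2.19e-07), and 45.2 and 41.9 CPM in CFAE+8, so CFAE+6 was the lowest of the cocktails. Pfkp, a phosphofructokinase, was higher by 0.46 ± 0.07. The counts of Gapdh (0.67 ± 0.14) and Eno1 (0.24 ± 0.04) are uncertain, since 25.1% and 26.0% of their 50-base words occur in other genes. Of 21 ATF4 and amino acid stress genes, 5 were higher and 0 lower (median 0.04), and without CFAE+6 replicate 2 it was 3. Nupr1, a stress-induced chromatin protein, stood at 13.6 and 14.7 CPM against 6.88 and 6.93 CPM (1.03 ± 0.15, adjusted p = 1.59e-05), and the cystine transporter subunits Slc7a11 (0.38 ± 0.07) and Slc3a2 (0.27 ± 0.05) were higher. Of 23 glutathione and NRF2 genes, 2 were higher and 2 lower (median -0.07), the latter being Gstm1, at 10.6 and 10.04 CPM against 15.6 and 20.1 CPM (-0.79 ± 0.15), and Mgst1 (-0.56 ± 0.10).

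The RNA levels of the kinases that MSC2530818 inhibits lay within 1.5-fold of each other in the cocktails. Cdk8 (ENSMUSG00000029635, chromosome 5, 146231230-146302874, plus strand) stood at 70.2 and 73.3 CPM with CFAE+8+MSC and 68.9 and 65.4 CPM with CFAE+6, a difference of 0.10 ± 0.07 (95% interval -0.06 to 0.25, adjusted p = 0.487). Cdk19 differed by 0.05 ± 0.13 (95% interval -0.21 to 0.31), Ccnc, which encodes cyclin C, by -0.03 ± 0.13 (-0.29 to 0.24) and Med13 by 0.09 ± 0.07 (-0.06 to 0.24). These are RNA levels and say nothing of kinase activity. Of the 7 kinase module genes 0 were called and 6 had an interval within 1.5-fold (median 0.08), and of 25 core Mediator genes 0 were higher and 1 lower (median -0.04). That 1 was Med22 (-0.23 ± 0.06), which lost its call without either CFAE+8+MSC library or CFAE+6 replicate 2. Of 17 housekeeping genes, 5 were higher and 2 lower and 16 lay within 1.5-fold (median -0.002), with Polr2a, the largest subunit of RNA polymerase II, at 415 and 425 CPM against 334 and 335 CPM (0.33 ± 0.05, adjusted p = 1.91e-05).

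Markers of cell identity differed in both directions, where 6.21% of all genes tested were higher and 4.27% lower. Of 27 fibroblast markers tested, 9 were higher and 9 lower (median 0.02), with Fn1, Fbln2 and Vim, vimentin (0.21 ± 0.03), on the higher side and Dcn and Lum on the lower. Their summed level was 27449 and 28397 CPM with CFAE+8+MSC and 25300 and 26259 CPM with CFAE+6. Of 14 mesenchymal transition transcription factors, 4 were higher and 3 lower (median 0.08). This was 2 and 1 without CFAE+8+MSC replicate 1, 3 and 1 without CFAE+8+MSC replicate 2, 3 and 0 without CFAE+6 replicate 2, and 4 and 0 in a fit of the 4 libraries alone. Among the higher were Runx1, at 132 and 129 CPM against 83.3 and 86.3 CPM (0.62 ± 0.06, adjusted p = 1.4e-08), and Foxc1 (0.61 ± 0.11). Of 8 pericyte markers, 4 were higher and 1 lower (median 0.26). The lower member was Rgs5, and the higher were Cspg4, Mcam, Anpep and Pdgfrb. Cspg4, the NG2 proteoglycan of pericytes, stood at 12.4 and 12.4 CPM against 6.88 and 7.1 CPM (0.82 ± 0.15). With the length offsets, and in a fit of the 4 libraries alone, 4 pericyte markers were higher and 2 lower. Pericytes share many genes with smooth muscle, and the summed level of the pericyte list was 506 and 503 CPM against 455 and 474 CPM. Whether such cells had a part in the contractile difference was not tested.

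Of 17 skeletal muscle markers, 3 were higher and 0 lower (median -0.25). They were Acta1, Des and Chrna1, an acetylcholine receptor subunit (0.49 ± 0.10), and the whole list summed to 136 and 147 CPM against 103 and 102 CPM. Acta1 made up most of that difference, with means of 43.1 CPM against 16.5 CPM. The muscle regulators Myod1 and Myog were tested and not called. Their relatives Myf5 and Myf6 and the creatine kinase Ckm had too few counts to be tested. Of 10 endothelial markers, 2 were higher, Flt1 (0.51 ± 0.11, lost without CFAE+6 replicate 1) and Esam (0.66 ± 0.09), and 0 lower (median 0.12), with sums of 145 and 142 CPM against 122 and 118 CPM, and Pecam1 was not tested. Of 15 macrophage markers, 2 were higher and 1 lower (median 0.18), with sums of 25.6 and 25.4 CPM against 25.7 and 21.8 CPM, whereas fibroblast medium gave 249 and 247 CPM. This median changed sign, to -0.31 without either CFAE+8+MSC library and -0.23 in a fit of the 4 libraries alone. The lysosomal gene Cd68 was higher at 10.3 and 11.5 CPM against 6.52 and 4.79 CPM (0.95 ± 0.19), and Lyz2, lysozyme, was lower at 4.24 and 2.98 CPM against 7.58 and 6.25 CPM (-0.93 ± 0.19), a call lost without CFAE+8+MSC replicate 2. Mpeg1, with 13 and 7 counts against 2 and 0, was called higher but not without CFAE+8+MSC replicate 1 or CFAE+6 replicate 2.

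Of 14 epithelial markers, 4 were higher and 1 lower (median 0.14), with sums of 255 and 268 CPM against 198 and 205 CPM. Dsp, desmoplakin of desmosomes, made up most of that, at 185 and 198 CPM against 138 and 143 CPM (0.45 ± 0.06, adjusted p = 1.75e-06). The epithelial list had 2 higher without either CFAE+8+MSC library or CFAE+6 replicate 1 and 1 with DESeq2. Its median was -0.14 without CFAE+8+MSC replicate 2 and 0.45 in a fit of the 4 libraries alone. Of 11 mesothelial markers 1 was higher and 1 lower (median 0.28, sums of 73.5 and 66.7 CPM against 76.9 and 74.1 CPM), and of 8 adipocyte markers 1 was higher, Fasn (0.20 ± 0.04), and 0 lower (median -0.23, sums of 1431 and 1413 CPM against 1318 and 1312 CPM), with Adipoq not tested. The mesothelial median was -0.10 without CFAE+8+MSC replicate 1 and 0.004 without CFAE+6 replicate 2. Its higher count was 0 without CFAE+8+MSC replicate 1 or CFAE+6 replicate 1, and its lower count was 0 without CFAE+8+MSC replicate 2 or either CFAE+6 library. Of 11 cartilage and bone markers 1, Spp1, was lower and 0 higher (median 0.09, sums of 466 and 444 CPM against 597 and 606 CPM). Of 11 neural crest and glial genes 1, Foxd3, was higher and 0 lower (median 0.13, sums of 155 and 148 CPM against 147 and 138 CPM), a call lost when any 1 of the 4 libraries was left out. Of 18 neuronal markers, 5 were higher and 3 lower (median 0.08, sums of 1454 and 1458 CPM against 1444 and 1437 CPM). With 1 library left out, 2 to 4 were higher and 1 or 2 lower, and the median was -0.08 without CFAE+8+MSC replicate 1. Syn1, a synaptic vesicle protein, stood at 155 and 145 CPM against 99.96 and 93.1 CPM (0.64 ± 0.06), and Gap43, a growth cone protein, at 193 and 198 CPM against 339.6 and 344 CPM (-0.81 ± 0.05, adjusted p = 7.83e-13). Calb1, calbindin (-0.68 ± 0.14), was lower, a call lost without CFAE+6 replicate 2. Markers of red blood cells had too few counts to be tested.

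Of 14 extraembryonic endoderm markers, a lineage reached in chemical reprogramming, 5 were higher and 1 lower (median 0.04), with sums of 3602 and 3694 CPM against 3393 and 3456 CPM. The higher members were mostly basement membrane genes, Lama1, Lamb1 (0.24 ± 0.04) and Col4a1, with Pdgfra and Thbd (0.44 ± 0.07), while Foxa2 and Hnf4a were not tested. Of 22 pluripotency markers 16, Pou5f1 and Nanog among them, had too few counts to be tested, and of the other 6, 1 was lower and 0 higher (median -0.31, sums of 158 and 154 CPM against 164 and 159 CPM). It was Tfcp2l1, at 0.693 and 0.452 CPM against 1.67 and 1.97 CPM, a call lost when any 1 of the 4 libraries was left out. Of 32 Hox genes tested, 2 were higher and 0 lower (median 0.01), against 6.21% and 4.27% of all genes tested. The higher Hox genes were Hoxc6 (0.38 ± 0.08) and Hoxc5 (0.25 ± 0.07), the second lost without CFAE+8+MSC replicate 1 or CFAE+6 replicate 1.

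**Figure D5:**
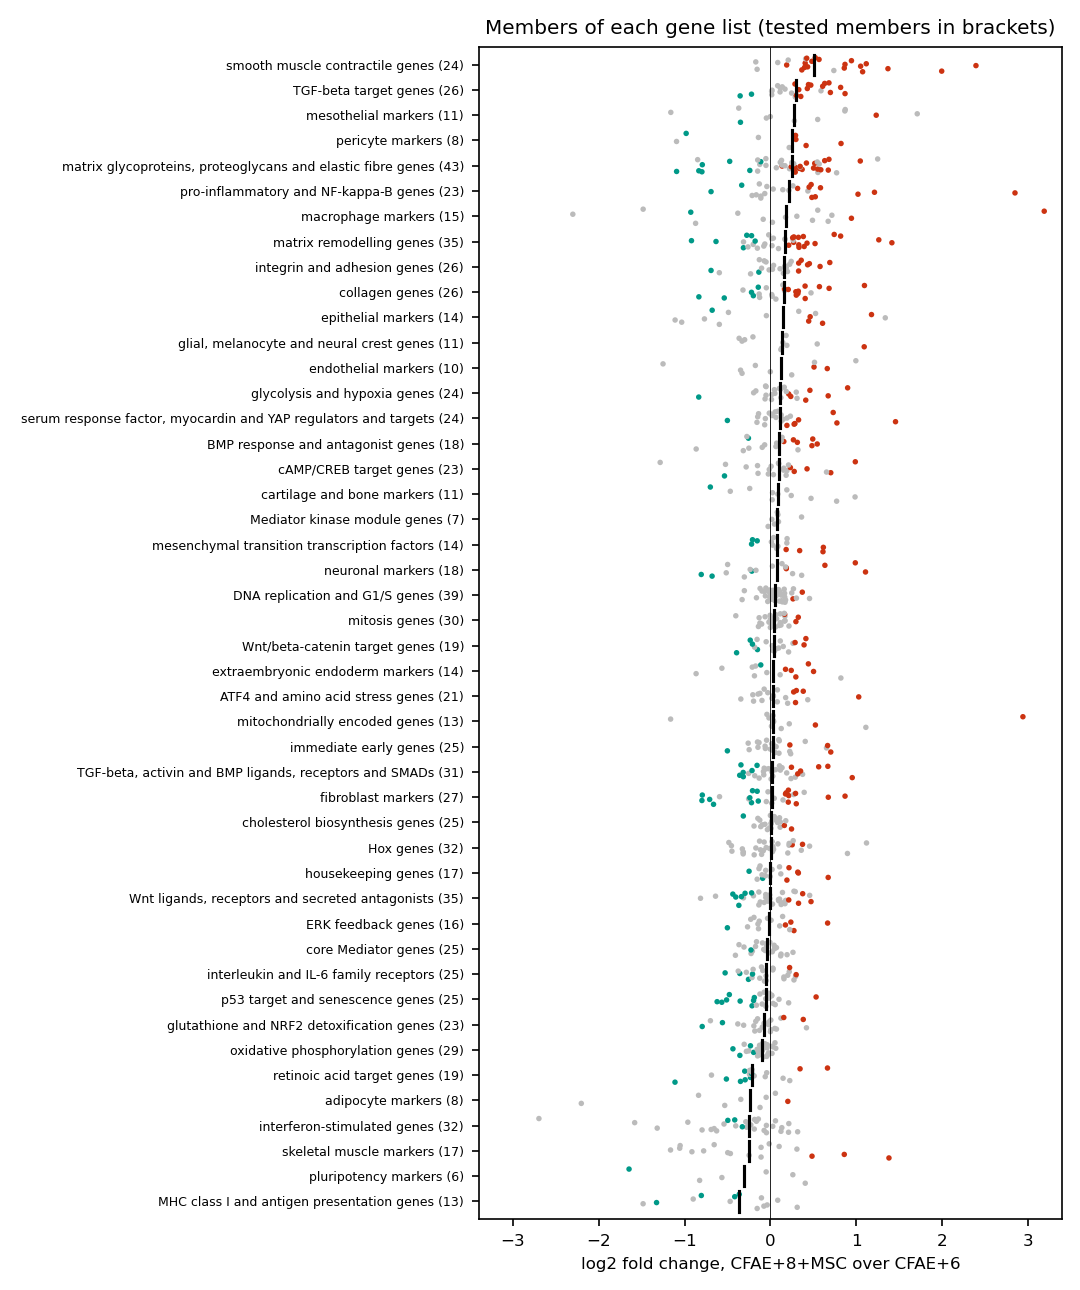
Log2 fold change of CFAE+8+MSC over CFAE+6 (x axis) for each tested member of 46 gene lists (rows), with called members in colour, others in grey and the median as a black bar; 1 member lies beyond the axis. The smooth muscle list has 18 of 24 members called, all higher, and the mitosis, replication and cholesterol lists lie close to 0.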

How the data were processed

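RNA was measured in 8 libraries, 2 for each of 4 treatments at day 4, and 4 of them entered the comparison described here. The authors deposited raw counts for each gene. The submitters' processing notes name featureCounts of Subread, DESeq2 and the build mm10, with no version of either tool. Aligner, annotation release and strand setting were not given in the sources used here. NEBNext Ultra, the library kit per the labels' protocols, does not mark strand, so reads of overlapping genes cannot be told apart. Of the identifiers, 54495 of 54532 were found in GENCODE M21, 53585 with the same start and end, and its exons gave the overlap and the sharing of 50-base words.

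Groups and replicate numbers came from the labels. Low genes were removed with filterByExpr of edgeR 4.0.16 (R 4.3.3, limma 3.58.1), which kept 15470 of 28024 genes with any count and 99.85% of the counts, and libraries were scaled with TMM factors. Differences were tested with glmQLFit and glmQLFTest of edgeR, with a mean for each group over all 8 libraries and 4 residual degrees of freedom, at a Benjamini-Hochberg adjusted p of 0.05. The estimate of the spread was moderated over genes, with 23.9 prior degrees of freedom. The standard error was the coefficient over the square root of F. In 1 library, 3 counts correspond to 0.254 to 0.285 CPM. The script was tested on simulated data. DESeq2 1.42.0 was an alternative.

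Members and gene lists were chosen with earlier results of these data known. The text names the 15 largest called differences each way with at least 5 CPM in 1 group and no overlap of libraries, passing over predicted genes, pseudogenes and small RNA genes. It also names up to 4 called members of each list with the smallest adjusted p, or its most abundant member where none was called, and Cdk8, Cdk19 and Ccnc. A number of these genes are not named. All other named genes, and the lists in the closing observations, were picked with their values in view.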

Additional observations from a re-analysis of the deposited data

How the results depend on the processing

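The number of calls depended on the test and on single libraries. DESeq2's Wald test gave 617 genes higher and 317 lower (47 and 13 at a difference of at least 1 log2 unit), and testing against a change of 1.2-fold 190 and 89 (48 and 19), with no interval count. Leaving out 1 library at a time gave 573 to 888 higher and 350 to 566 lower genes. At a difference of at least 1 log2 unit it gave 62 to 78 and 32 to 55, and 8567 to 8773 genes lay within 1.5-fold. The lowest counts of called genes came without CFAE+6 replicate 2. A group left with 1 library was assumed to vary like the others. Genes within 1.5-fold numbered 8572 with DESeq2. Other scalings and filters, a fit of the 4 libraries alone (834 higher, 508 lower) and gene-length offsets stayed within 1.5 times the reported counts. With no filter the counts at 1 log2 unit were 109 and 84.

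Of the 242 genes followed, 103 lost their call under the 1.2-fold test, 32 with DESeq2, 9 with the length offsets and 29 to 41 when a library was left out, and no call changed direction. With the replicate number as a replicate block, 984 genes were higher and 695 lower, 83 and 58 at 1 log2 unit, 9573 were within 1.5-fold, and no gene followed changed its call. Same-numbered libraries of the groups compared had deviations with a correlation of 0.0512, although the second principal component separated replicate 1 from replicate 2 in both groups. The labels do not say what a number marks, so the libraries were not treated as pairs. With 2 libraries a group, precision is limited: the longest gene-length class moved with the groups, and low genes such as Mpeg1 rest on few counts.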

Other observations

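Lists drawn up after the values were seen add 3 descriptions. Of 23 Notch pathway genes, 4 were higher in CFAE+8+MSC and 0 lower (median 0.10). Hes1, the repressor that Notch activates, stood at 45.6 and 41.4 CPM with CFAE+8+MSC, 19.7 and 22.9 CPM with CFAE+6, 9.56 and 12.6 CPM with CFAE+8 and 83.3 and 79.3 CPM in fibroblast medium. Both cocktails lay between CFAE+8 and fibroblast medium, and they did not overlap (1.03 ± 0.11, adjusted p = 3.6e-08 by edgeR). The ligand Jag1 stood at 44.2 and 41.9 CPM against 26.6 and 27.3 CPM (0.67 ± 0.09, adjusted p = 6.33e-06 by edgeR). The related repressor Hey1 (0.55 ± 0.15) and the regulator Dtx4 (0.48 ± 0.12) lost their calls without CFAE+8+MSC replicate 2, Hey1 also without CFAE+6 replicate 1 and Dtx4 also without CFAE+6 replicate 2. The receptor genes Notch1 (0.09), Notch2 (0.14) and Notch3 (-0.14) were not called.

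Of 32 imprinted genes, 3 were higher and 5 lower (median 0.03). H19, a long noncoding RNA of the Igf2 locus (chromosome 7, 142575529-142578143, minus strand), stood at 2886 and 3098 CPM against 3885 and 4174 CPM (-0.43 ± 0.04, adjusted p = 6.84e-10 by edgeR), and CFAE+8 gave 1998 and 2048 CPM. Its neighbour Igf2 stood at 161 and 151 CPM against 153 and 141 CPM and was not called (0.08 ± 0.06), but exons of other genes cover 64.5% of its exon bases, so its count is uncertain. Mest, with 23.1% of its exon bases so covered, was lower at 87.8 and 83.7 CPM against 126 and 125 CPM (-0.55 ± 0.06), and Peg3 was higher (0.26 ± 0.05). Without CFAE+6 replicate 2 only 1 imprinted gene was higher.

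Of 78 ribosomal protein genes, 30 were lower in CFAE+8+MSC and 0 higher (median -0.13), against 4.27% and 6.21% of all genes tested. Ribosomal protein genes took 3.35% and 3.34% of the counts with CFAE+8+MSC against 3.70% and 3.78% with CFAE+6. The length offsets gave 16 lower, DESeq2 16, and leaving out a library gave 18 lower without CFAE+8+MSC replicate 1, 19 without CFAE+8+MSC replicate 2, 25 without CFAE+6 replicate 1 and 12 without CFAE+6 replicate 2. A test against a 1.2-fold change called 2 lower. Transcription factor genes among the calls, named after their values were seen, include Evx1 and Prdm1. Evx1, a homeobox gene of the primitive streak, stood at 14.2 and 15.4 CPM against 5.38 and 7.02 CPM (1.25 ± 0.19, adjusted p = 3.63e-05 by edgeR). Prdm1, a transcriptional repressor that acts in germ cell and immune lineages, stood at 76 and 76.3 CPM against 52.7 and 49.3 CPM (0.58 ± 0.08).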
